A study of Homo sapiens with 2 samples.

Results

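The expression of 10 enzymes that make, activate or inactivate androgens was examined in untreated cells of 2 human prostate cancer lines, RC77 T/E and MDA PCa 2b. They were chosen by name, as the rows of the deposited expression table whose gene symbol is SRD5A1, SRD5A2, SRD5A3, AKR1C3, HSD17B6, STS, HSD17B2, HSD17B4, UGT2B15 or UGT2B17. All 10 were found, in 11 rows, among 21382 genes. Total RNA of each line was sequenced as 1 paired-end, strand-keeping library, so no value has a replicate error and no difference between the lines has a replicate check or a p-value. MDA PCa 2b was grown in Kaighn's F-12 medium with 20% fetal bovine serum, cholera toxin, epidermal growth factor, phosphoethanolamine, hydrocortisone, sodium selenite and insulin. RC77 T/E was grown in Keratinocyte-SFM, to which bovine pituitary extract and the same growth factor were added. The effect of the medium, serum and hydrocortisone included, cannot be told apart from that of the cell line. Expression was given as TPM, a unit of relative transcript abundance that divides the reads of a gene by its length and scales them to the library, so that levels can be set side by side between genes. TPM keeps no record of read numbers, so the depth and the precision of each value are unknown.

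As background, prostate cells can make dihydrotestosterone, the most potent natural androgen, from weaker steroids that reach them in the blood. STS frees such steroids from their sulfate, AKR1C3 reduces androstenedione to testosterone, and the steroid reductases SRD5A1 and SRD5A2 turn testosterone into dihydrotestosterone. HSD17B2 and HSD17B4 oxidise testosterone or related steroids back to weaker forms, HSD17B6 can regenerate dihydrotestosterone from a reduced metabolite, and UGT2B15 and UGT2B17 attach glucuronic acid to androgens so that they can be excreted.

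The lines differed most in AKR1C3, which read 0.0486 TPM in MDA PCa 2b against 14.0 TPM in RC77 T/E, a ratio of 288. The size of that ratio is uncertain, as it rests on a value near 0 in 1 library. Of the 6 enzymes whose mean over both lines reached 1 TPM, HSD17B2 was the only other one higher in RC77 T/E, by 4.76-fold. STS was 5.53-fold, SRD5A3 3.06-fold, SRD5A1 2.19-fold and HSD17B4 2.16-fold higher in MDA PCa 2b. SRD5A2 was near 0 in both lines, and UGT2B15 and UGT2B17 were under 1 TPM in MDA PCa 2b and listed at 0 in RC77 T/E. At a threshold of 1 TPM, 6 of the 10 enzymes were expressed in RC77 T/E beside 5 in MDA PCa 2b, and 4 of them, SRD5A1, SRD5A3, HSD17B2 and HSD17B4, in both. For comparison, 52.8% of all genes reached 1 TPM in RC77 T/E beside 49.6% in MDA PCa 2b.

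From the deposited table alone, which was the only source of values used here, the levels of 4 enzymes are known only up to a factor of 10 or 100. Numbers from 1 TPM upwards that carry 3 or more decimals were deposited without their decimal mark. The deposited mean and standard error of each row leave 1 position of the mark for 6 of the enzymes, but 2 positions for SRD5A3, HSD17B2 and HSD17B4 and 3 for SRD5A1. Every value that matches is given below for these 4. The mark moves in both lines together, so the ratio between the lines is the same at every position.

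**Figure D1:**
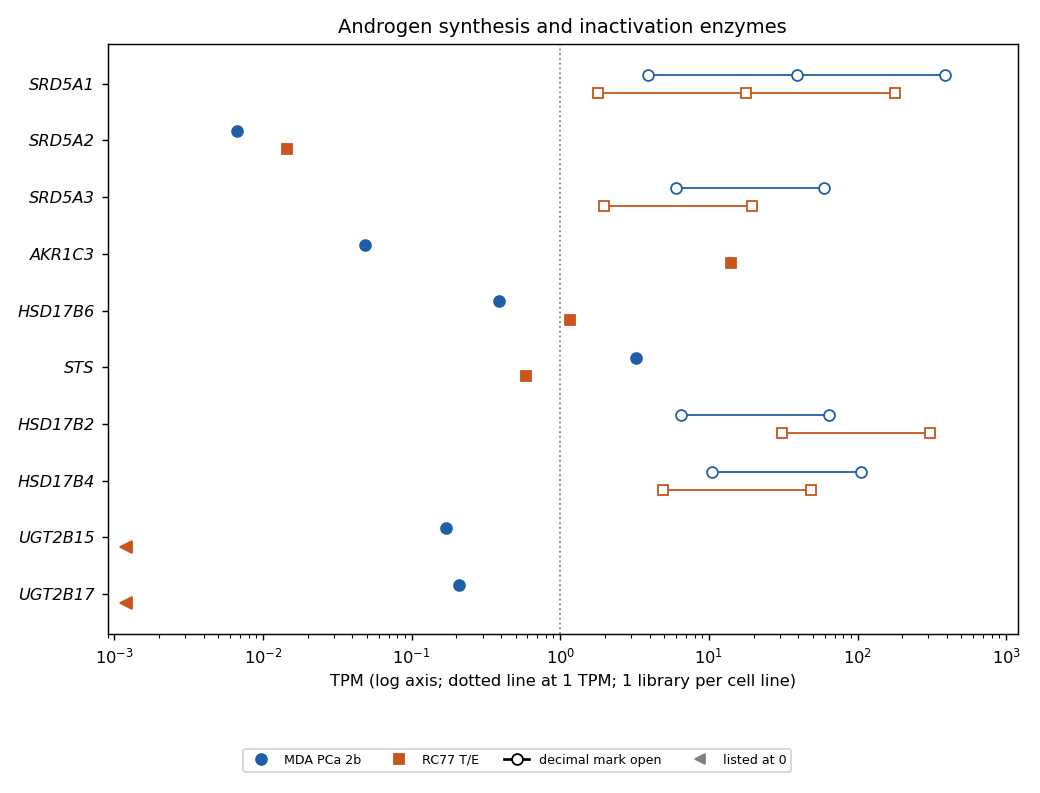
TPM of the 10 enzymes on a log axis, with 1 library per cell line (circles, MDA PCa 2b and squares, RC77 T/E). Joined open symbols are the alternative values of an enzyme whose decimal mark is open, and triangles mark genes listed at 0. AKR1C3 shows the widest gap, 0.0486 against 14.0 TPM.

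The regions around the transcription starts of these genes differ in their content of CG pairs, the dinucleotide at which human DNA is methylated. RefSeq promoters of 300 bases, 250 before and 50 after the start on build GRCh38.p14, were found for 7 of the 10 enzymes. Of these, 4 are shown in the direction of transcription, with CG pairs in capitals, because they hold the extremes: SRD5A1 was expressed in both lines, SRD5A2 in neither, AKR1C3 was near 0 in MDA PCa 2b and UGT2B15 was listed at 0 in RC77 T/E. They lie at chr5:6633190-6633489 on the plus strand, chr2:31580889-31581188 on the minus strand, chr10:5094164-5094463 on the plus strand and chr4:68670603-68670902 on the minus strand.
SRD5A1: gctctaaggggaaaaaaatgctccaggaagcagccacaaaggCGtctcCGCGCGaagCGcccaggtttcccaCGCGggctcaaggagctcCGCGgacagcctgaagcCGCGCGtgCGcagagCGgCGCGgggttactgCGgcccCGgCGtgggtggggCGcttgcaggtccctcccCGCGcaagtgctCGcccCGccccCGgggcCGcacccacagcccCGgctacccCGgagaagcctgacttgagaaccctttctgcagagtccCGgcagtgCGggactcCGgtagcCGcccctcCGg
SRD5A2: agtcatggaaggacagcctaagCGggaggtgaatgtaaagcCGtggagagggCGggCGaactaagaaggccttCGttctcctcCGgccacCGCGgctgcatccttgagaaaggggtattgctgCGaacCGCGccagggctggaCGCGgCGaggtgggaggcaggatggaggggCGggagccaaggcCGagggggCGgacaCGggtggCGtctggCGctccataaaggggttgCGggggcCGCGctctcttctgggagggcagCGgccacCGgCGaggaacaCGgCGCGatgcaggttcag
AKR1C3: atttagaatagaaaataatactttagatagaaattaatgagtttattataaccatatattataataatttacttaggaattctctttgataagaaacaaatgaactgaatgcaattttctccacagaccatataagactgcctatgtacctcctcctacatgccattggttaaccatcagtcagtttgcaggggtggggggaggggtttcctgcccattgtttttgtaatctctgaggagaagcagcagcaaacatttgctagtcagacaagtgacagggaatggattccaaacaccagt
UGT2B15: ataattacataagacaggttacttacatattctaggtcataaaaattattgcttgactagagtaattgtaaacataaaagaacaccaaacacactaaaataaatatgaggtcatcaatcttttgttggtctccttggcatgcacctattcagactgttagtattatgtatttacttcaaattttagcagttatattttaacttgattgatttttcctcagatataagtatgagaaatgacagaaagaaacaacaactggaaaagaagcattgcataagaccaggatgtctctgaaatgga

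The SRD5A1 promoter holds 33 CG pairs, that of SRD5A3 31, that of SRD5A2 29 and that of HSD17B4 19. The STS promoter holds 3, and those of AKR1C3 and UGT2B15 hold 0. The STS window, at chrX:7252223-7252522, and the AKR1C3 window lie inside the deposited spans of their genes, downstream of the deposited and GENCODE starts, so other starts of these genes are not covered. Over 35116 RefSeq promoters of this length the median was 14, with quartiles of 4 and 28. Of the 4 genes above this median, HSD17B4 lay under the upper quartile. Among these 4, SRD5A1, SRD5A3 and HSD17B4 were at 1 TPM or more in both lines, but SRD5A2, with 29 CG pairs, was at 0.0144 TPM or less in both. The 3 genes with few or no CG pairs, AKR1C3, STS and UGT2B15, were each at 1 TPM or more in at most 1 line. These are 7 promoters, and the count is a description only. Both strands were also searched for TGACNNNGC, the core of the antioxidant response element. It stood in 1 of the 7 promoters, that of SRD5A3, and in 13.3% of all promoters. The AKR1C3 window did not hold it.

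In the SRD5A group, SRD5A1 and SRD5A3 were at 1 TPM or more in both lines and higher in MDA PCa 2b, and SRD5A2 was near 0 in both. SRD5A1 (ENSG00000145545, chr5:6633427-6674386), the reductase that acts in most tissues outside the prostate and in many prostate cancers, read 3.90, 39.0 or 390.4 TPM in MDA PCa 2b and, at the same positions of the mark, 1.78, 17.8 or 178 TPM in RC77 T/E. It was therefore above 1 TPM in both lines whichever position holds, and 2.19-fold higher in MDA PCa 2b. On the scale used to count differences, log2 of the RC77 T/E level divided by the MDA PCa 2b level after 1 TPM was added to both, its value was −0.82 at the lowest position and −1.12 at the highest. SRD5A2 (ENSG00000277893, chr2:31522480-31580938), the main reductase of the normal prostate, read 0.00669 TPM in MDA PCa 2b against 0.0144 TPM in RC77 T/E. Both values were far under 1 TPM, and its log2 value was 0.01. SRD5A3 (ENSG00000128039, chr4:55346213-55373100), which reduces polyprenol to dolichol for protein glycosylation, read 5.98 or 59.8 TPM in MDA PCa 2b against 1.95 or 19.5 TPM in RC77 T/E. It was the reductase with the largest ratio toward MDA PCa 2b, 3.06, with a log2 value of −1.24 at the lowest position and −1.57 at the highest. On the opposite strand, SRD5A3-AS1 overlaps it and read 0.123 TPM in MDA PCa 2b against 0.0367 TPM in RC77 T/E.

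AKR1C3 (ENSG00000196139, chr10:5035354-5107686), a ketosteroid reductase of the aldo-keto reductase family, had a fixed decimal mark in both lines. Its log2 value was 3.84 with 1 TPM added, 6.57 with 0.1 TPM added and 8.17 with nothing added. The size of the difference thus depends on the addition, because the level in MDA PCa 2b was near 0. In RC77 T/E only HSD17B2 among the 10 enzymes had a lowest possible value above that of AKR1C3, and in MDA PCa 2b only SRD5A2 was lower. Among all genes, 13334 of 21382 had a higher level than AKR1C3 in MDA PCa 2b. In RC77 T/E this number lay between 3595 and 7929, depending on the open marks of the other genes.

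HSD17B6 (ENSG00000025423, chr12:56752161-56787790), an oxidoreductase that forms dihydrotestosterone from androstanediol, read 0.385 TPM in MDA PCa 2b against 1.16 TPM in RC77 T/E. The ratio was 3.02 toward RC77 T/E, but the mean of both lines was 0.774 TPM, so it was left out of the count of differences, and its log2 value was 0.64. It overlaps PRIM1, a DNA primase subunit on the opposite strand, by 213 bases, and PRIM1 read 8.57 TPM in MDA PCa 2b against 14.0 TPM in RC77 T/E. Whether the authors used the strand when they computed TPM is not given in the sources used here, so the part of PRIM1 reads in these low values was not tested.

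STS (ENSG00000101846, chrX:7147237-7804358), the steroid sulfatase, read 3.24 TPM in MDA PCa 2b against 0.586 TPM in RC77 T/E, both with a fixed mark. It passed 1 TPM in MDA PCa 2b and not in RC77 T/E, with a log2 value of −1.42. The deposited span of STS is wider than that of GENCODE release 29, by 72219 bases at its start and 449548 bases at its end.

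HSD17B2 and HSD17B4, the enzymes that oxidise steroids to weaker forms, were both at 1 TPM or more in both lines. Their ratios had opposite directions. HSD17B2 (ENSG00000086696, chr16:82035004-82098534), a microsomal enzyme that turns testosterone into androstenedione, read 6.47 or 64.7 TPM in MDA PCa 2b against 30.8 or 308 TPM in RC77 T/E. Its log2 value was 2.09 at the lowest position and 2.23 at the highest. In RC77 T/E its lowest possible value, 30.8 TPM, was above the 14.0 TPM of AKR1C3. HSD17B4 (ENSG00000133835, chr5:119452465-119637199), a peroxisomal enzyme whose main role is the oxidation of very-long-chain and branched fatty acids, read 10.6 or 105.6 TPM in MDA PCa 2b against 4.88 or 48.8 TPM in RC77 T/E. Its log2 value was −0.97 at the lowest position and −1.10 at the highest. FAM170A, which overlaps HSD17B4 on the same strand, read 0.00953 TPM in MDA PCa 2b against 0.0434 TPM in RC77 T/E.

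Neither glucuronidating enzyme reached 1 TPM. UGT2B15 (ENSG00000196620, chr4:68646597-68670652), which conjugates dihydrotestosterone and its metabolites, read 0.169 TPM in MDA PCa 2b and was listed at 0 in RC77 T/E. Its symbol covers 2 loci, and 1 of them was at 0 in both lines. UGT2B17 (ENSG00000197888, chr4:68537173-68576413), which also conjugates testosterone, read 0.209 TPM in MDA PCa 2b and was listed at 0 in RC77 T/E. No ratio is given for either gene. They are close copies: of the 31-base words in the GENCODE coding transcripts of UGT2B15, 37.1% also occur in UGT2B17, and 59.9% occur in no other gene. Reads could thus have been split between them, and the share of each in the MDA PCa 2b values is uncertain. Each of the other 8 enzymes had at least 85.2% of its words in no other gene, the lowest being AKR1C3.

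Among the values with a fixed mark, the order in MDA PCa 2b was STS, HSD17B6, UGT2B17, UGT2B15, AKR1C3 and SRD5A2, and in RC77 T/E it was AKR1C3, HSD17B6, STS and SRD5A2, with both UGT2B genes at 0. In MDA PCa 2b the 4 enzymes with an open mark all lay above STS, from at least 3.90 TPM for SRD5A1 to at least 10.6 TPM for HSD17B4. In RC77 T/E these 4 lay above HSD17B6, and HSD17B2 also lay above AKR1C3. HSD17B2, at 30.8 TPM or more, lay above SRD5A3, at 19.5 TPM or less, in that line. The order of the 4 is otherwise not determined there, and it is not determined in MDA PCa 2b.

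Of the 6 enzymes with a mean of at least 1 TPM, 2 had a log2 value of at least 1 toward RC77 T/E, AKR1C3 and HSD17B2, where 19.4% of the 11624 genes with such a mean did. Toward MDA PCa 2b there were also 2, SRD5A3 and STS, where 20.0% of these genes did. SRD5A1 and HSD17B4 lay just short of the limit, at −0.82 and −0.97, because 1 TPM was added to values read at the lowest position. Without that addition the 2-fold limit was passed by 2 enzymes toward RC77 T/E and by 4 toward MDA PCa 2b, beside 22.0% and 23.9% of the 11624 genes, counting a gene listed at 0 in 1 line as higher in the other. The median log2 value was −0.25 over the 10 enzymes and −0.90 over the 6 with a mean of at least 1 TPM. Over the 11624 genes it was −0.15. Relative to that shift, SRD5A3 stood at −1.09, STS at −1.27, HSD17B2 at 2.24 and AKR1C3 at 3.99. With 6 enzymes, the 2 or 4 in a direction are too few to set them apart from the background. AKR1C3, near 0 in MDA PCa 2b, reached the mean through RC77 T/E alone, which fixed its direction in this count.

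**Figure D2:**
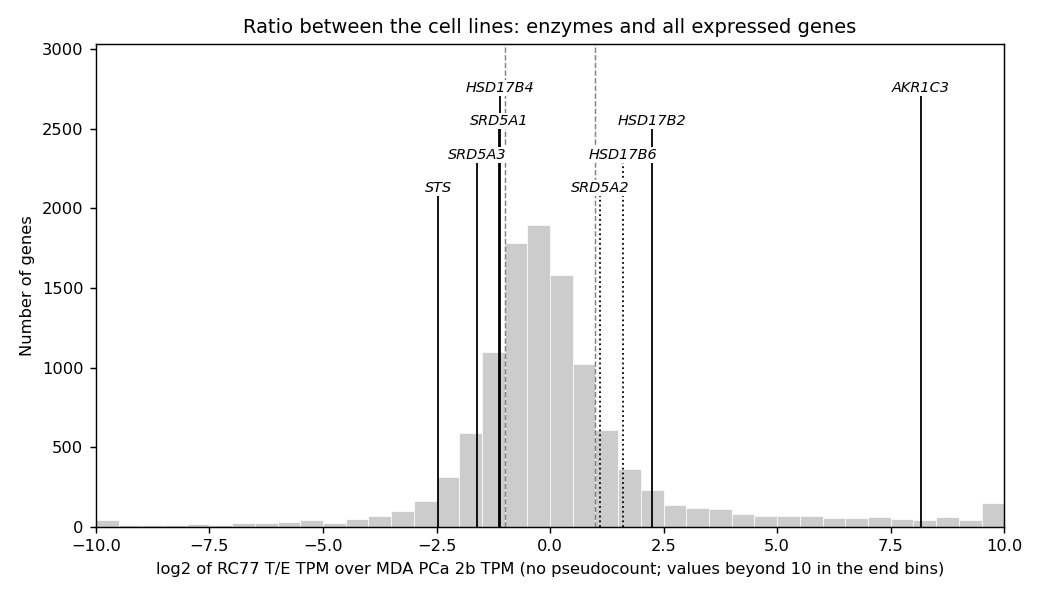
Number of genes (vertical axis) by the log2 ratio of RC77 T/E TPM over MDA PCa 2b TPM with nothing added, for the 11285 genes above 0 in both lines whose mean reached 1 TPM (bars). Solid lines mark enzymes with a mean of at least 1 TPM, dotted lines those under it, and dashed lines a 2-fold ratio. AKR1C3, at 8.17, lies far out in the right tail, and SRD5A1, HSD17B4, SRD5A3 and STS lie beyond the left dashed line.

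The genes next to AKR1C3 shared its pattern in part. AKR1C1, AKR1C2, AKR1C3 and AKR1C4 lie together on chromosome 10 and encode reductases of ketosteroids. AKR1C1, which inactivates progesterone, read 0.0106 TPM in MDA PCa 2b against 11.5 TPM in RC77 T/E. AKR1C2, which reduces dihydrotestosterone to androstanediol, read 0.0157 and 2.47 TPM in the same order. AKR1C4, a liver enzyme, was listed at 0 in both. AKR1E2, a further aldo-keto reductase, was listed at 0 in MDA PCa 2b and read 2.02, 20.2 or 202 TPM in RC77 T/E. The steroid reductase AKR1D1 read 0.142 TPM in MDA PCa 2b against 0.0119 TPM in RC77 T/E. AKR1C1 and AKR1C2 are near copies, with 66.5% and 40.5% of their 31-base words in no other gene. The division of reads between these 2 is therefore uncertain. Their promoter windows were identical at 93.5% of alignment columns, gaps included. The AKR1C2 window, at chr10:5003808-5004107 on the minus strand, lies inside its gene, downstream of the deposited and GENCODE start. AKR1C3 shared 10.2% of its words with AKR1C1 and 10.4% with AKR1C2.

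Of the other UGT2B genes on chromosome 4, 3 were higher in MDA PCa 2b than UGT2B15 and UGT2B17, and UGT2B10 and UGT2B7 were lower. In that line, UGT2B11 read 13.4 or 134 TPM, UGT2B28 read 2.46, 24.6 or 246 TPM, and UGT2B4 read 2.26, 22.6 or 226 TPM. UGT2B10 read 0.120 TPM and UGT2B7 0.0102 TPM in that line. All 5 were listed at 0 in RC77 T/E, as were UGT2A1 and UGT2A3, which were also at 0 in MDA PCa 2b. UGT2B28 conjugates androgens as well, and the others act mainly on bile acids, drugs or fatty acids. UGT2B11 and UGT2B28 had 37.0% and 42.4% of their words in no other gene, so reads may have been split among them and with nearby pseudogenes.

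**Figure D3:**
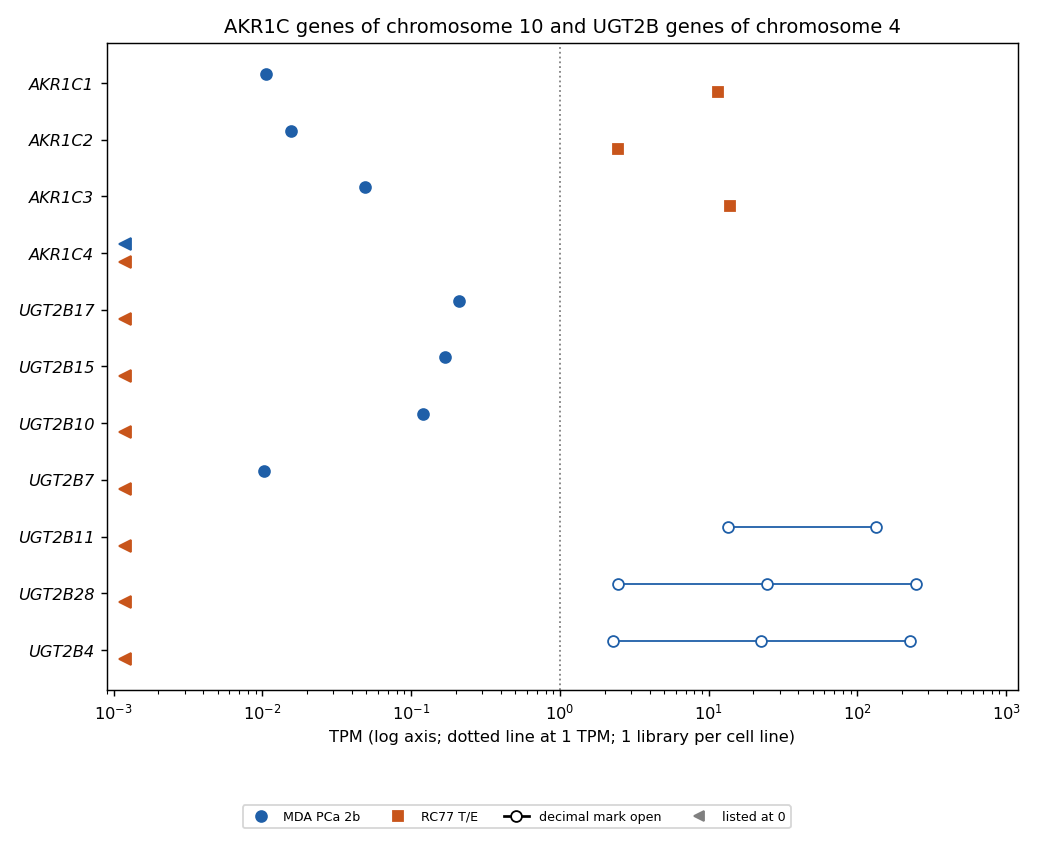
TPM on a log axis of the AKR1C genes of chromosome 10 and the UGT2B genes of chromosome 4, in MDA PCa 2b (circles) and RC77 T/E (squares). Open symbols show open decimal marks and triangles genes listed at 0. AKR1C1, AKR1C2 and AKR1C3 lie above 1 TPM in RC77 T/E alone, and the UGT2B genes are above 0 in MDA PCa 2b alone.

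The steps around the enzymes were followed in 10 lists of 74 measured genes, 49 of which had a mean of at least 1 TPM and are called expressed here. Of these 49, 8 had a log2 value of at least 1 toward RC77 T/E and 22 toward MDA PCa 2b, with a median of −0.80. Over the 11624 genes with such a mean these shares were 19.4% and 20.0%, and the median was −0.15, which are the values to set beside each list that follows. The lists are small, and their counts are descriptions. Upstream of the enzymes, in the list for steroid synthesis from cholesterol, 4 of 9 genes were expressed, 3 of them higher in MDA PCa 2b with 0 higher in RC77 T/E, beside 20.0% and 19.4% of the 11624 genes. CYB5A, a cytochrome that aids the lyase step of CYP17A1, read 231 TPM in MDA PCa 2b against 35.2 TPM in RC77 T/E. The electron carriers FDXR and FDX1 were 2.92-fold and 2.35-fold higher in MDA PCa 2b. The enzymes that commit cholesterol to androgens were under 1 TPM in both lines. CYP17A1 read 0.00679 TPM in MDA PCa 2b and was listed at 0 in RC77 T/E, and CYP11A1 read 0.613 and 0.238 TPM. HSD3B1 read 0.0400 and 0.0207 TPM in the same order, and HSD3B2 read 0.0157 TPM in MDA PCa 2b and was listed at 0 in RC77 T/E.

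Among 9 other HSD17B genes, 7 were expressed, 2 of them higher in each line. HSD17B3, the testicular enzyme that makes the same product as AKR1C3, read 0.0157 TPM in MDA PCa 2b against 4.49 TPM in RC77 T/E, a ratio of 286. The size of that ratio is uncertain, as it rests on a value near 0 in 1 library. With 1 TPM added its log2 value was 2.43. HSD17B1, which makes estradiol from estrone, was 2.53-fold higher in RC77 T/E. HSD17B11 and HSD17B10, dehydrogenases of lipid droplets and mitochondria, were 4.99-fold and 3.23-fold higher in MDA PCa 2b. Some retinol dehydrogenases, though not all, can also oxidise androgens. Of 3 retinol dehydrogenases, 2 were expressed and both were higher in MDA PCa 2b. RDH16 read 17.4 TPM there and 0.770 TPM in RC77 T/E, and RDH11 was 2.15-fold higher. CYP19A1, the aromatase that turns androgens into estrogens, was listed at 0 in both lines, and of 6 P450 genes only CYP1B1 was expressed, at 1.67-fold more in MDA PCa 2b.

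Sulfation, the reverse of the STS step, was covered by 7 genes, of which 5 were expressed, 1 higher in each direction. SULT2B1, a sulfotransferase of cholesterol and related steroids, read 63.4 or 634 TPM in MDA PCa 2b against 4.19 or 41.9 TPM in RC77 T/E, a ratio of 15.1. PAPSS2, which makes the sulfate donor, was 3.59-fold higher in RC77 T/E. SULT2A1, the main sulfotransferase of adrenal androgens, was listed at 0 in both lines. SUMF1, which activates sulfatases such as STS, was 1.30-fold higher in MDA PCa 2b. For glucuronidation, UGDH, which makes the UDP-glucuronate that the UGT enzymes use, was 3.55-fold higher in MDA PCa 2b, and UGP2, one step earlier, read 21.6 TPM there and 41.2 TPM in RC77 T/E. Together with the UGT2 genes given above, 5 of 9 genes in that list were expressed, 4 higher in MDA PCa 2b with 0 higher in RC77 T/E. Among the 4 were UGT2B4, UGT2B11 and UGT2B28, listed at 0 in RC77 T/E. These reached the mean through MDA PCa 2b alone, so the filter fixed their direction. Of 7 transporters of steroids or their conjugates, 4 were expressed. ABCC4, which exports conjugated steroids, read 141 TPM in MDA PCa 2b against 5.04 TPM in RC77 T/E, ABCG2 was 10.2-fold higher in MDA PCa 2b, and ABCC3 was 3.72-fold higher in RC77 T/E.

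SRD5A3 and HSD17B4 were also set beside the genes of their other pathways. All 9 dolichol and N-glycosylation genes were expressed, 2 of them at least 2-fold higher in MDA PCa 2b on the log2 scale and 1 in RC77 T/E, with a median of −0.68. ALG5, 2.88-fold higher in MDA PCa 2b, lay just short of the limit at −0.999, because 1 TPM was added at the lowest position. The dolichol phosphate mannose synthase subunits went both ways: DPM3 read 446 TPM in MDA PCa 2b against 93.9 TPM in RC77 T/E, DPM2 was 2.80-fold higher in MDA PCa 2b, and DPM1 was 2.97-fold higher in RC77 T/E. Of 10 peroxisomal beta-oxidation genes, 9 were expressed, 6 higher in MDA PCa 2b with 0 higher in RC77 T/E, with a median of −1.14, beside 20.0%, 19.4% and a median of −0.15 over the 11624 genes. AMACR, a racemase of branched fatty acids used as a marker of prostate cancer, read 117 TPM in MDA PCa 2b, 39.1-fold more than in RC77 T/E. EHHADH, the other bifunctional enzyme of the peroxisome, was 5.70-fold, the thiolase ACAA1 4.14-fold and the acyl-CoA oxidase ACOX3 2.77-fold higher in MDA PCa 2b. The 9 expressed genes had ratios toward MDA PCa 2b from 1.44 for ABCD3 to 39.1 for AMACR, and that of HSD17B4, 2.16, lay within this range, above 3 and below 6 of them.

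**Figure D4:**
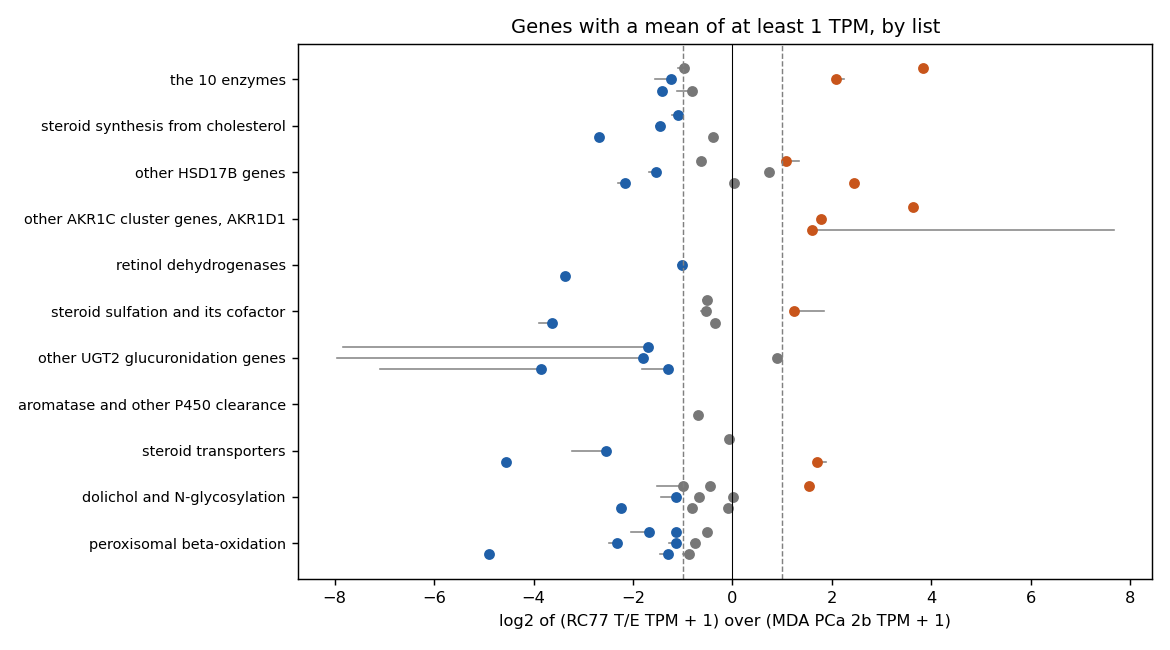
Each point is a gene whose mean reached 1 TPM, placed by log2 of its RC77 T/E level divided by its MDA PCa 2b level, with 1 TPM added to both, with its list on the vertical axis. Points use the lowest position of the decimal mark, grey bars reach to the highest, and dashed lines mark a log2 value of 1 in either direction (blue, higher in MDA PCa 2b and orange, higher in RC77 T/E). In the peroxisomal list 6 of 9 expressed genes are blue. All 3 expressed genes beside AKR1C3 are orange, but the filter fixed that colour. They were at or near 0 in MDA PCa 2b and reached the mean through RC77 T/E alone.

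The lines also differed in markers of prostate cell types. KLK3, the gene of prostate-specific antigen, read 5323 TPM in MDA PCa 2b and was listed at 0 in RC77 T/E. All 5 luminal markers reached 1 TPM in MDA PCa 2b and 3 of 5 in RC77 T/E, where KRT18 read 325 TPM beside 320.5 TPM in MDA PCa 2b. All 5 basal markers were higher in RC77 T/E, among them KRT5 at 4027 TPM beside 0.00435 TPM, and TP63, at 5.17 or 51.7 TPM beside 0. In MDA PCa 2b 3 of the 5 basal markers still reached 1 TPM, the highest being KRT14 at 37.4 TPM. The part of these cell type differences in the enzyme ratios was not tested. AKR1C and UGT2B enzymes are abundant in liver, and the 6 liver markers summed to 0.564 TPM in MDA PCa 2b against 0.242 TPM in RC77 T/E, with TTR and FGB listed at 0 in both. The 6 stromal markers summed to 2.77 and 9.22 TPM in that order, of which COL1A1 gave 8.24 TPM in RC77 T/E. The 6 blood and endothelial markers summed to 1.09 and 38.2 TPM, of which CD68 gave 37.9 TPM in RC77 T/E, where PTPRC was listed at 0. All 10 genes used by every cell reached 1 TPM in both lines, while 26.8% of all genes were listed at 0 in RC77 T/E beside 27.0% in MDA PCa 2b. Of these 10, ACTB was 2.40-fold higher in RC77 T/E, and RPLP0 2.51-fold and EEF2 2.34-fold higher in MDA PCa 2b. The other genes of that list stayed under 2-fold. The ratios of SRD5A1, 2.19, and HSD17B4, 2.16, were smaller than those of ACTB, RPLP0 and EEF2.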

How the data were processed

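RNA-Seq was available for MDA PCa 2b and RC77 T/E, 1 library each, untreated. Per the labels, the submitters' processing notes name CASAVA, FastQC 0.11.9, Trimmomatic 0.38, Salmon 1.2.0 and GRCh38, and the row identifiers have the form given by Cufflinks. The authors deposited TPM per locus with the mean and standard error of both lines. TPM is a share of the library, so ratios between lines depend on all other transcripts. No read counts were used, and the depth is unknown.

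The analysis plan had assumed plain TPM values, but commas in values of 1 TPM or more group digits whose decimal mark is lost. Candidate values had 1 to 3 leading digits and 3 or more decimals, and those that gave the deposited mean and standard error were kept, which left 1 position in 16284 rows and 2 or 3 in 6507. On simulated rows written by these same rules, the true position was always among those kept. That cannot show whether the deposited values follow the rules. Where several positions were left, the lowest served for ratios. Repeated loci were used once, and loci of a symbol were summed. A gene counted as expressed in a line at 1 TPM or more. Differences were counted where the mean reached 1 TPM, as log2 ratios with a pseudocount of 1 TPM and a limit of 2-fold. With 1 library per line no test was made. Alternatives were other thresholds, pseudocounts and scalings, the largest locus, the highest position and commas read as grouping.

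The enzymes, lists and markers were chosen with earlier results of these data known, and the promoter motif after these values were seen. Named are all 10 enzymes, the AKR1C and UGT2 genes, overlapping genes, and in each other list up to 4 expressed genes with the largest absolute log2 ratio. Other genes named from the lists, and the markers, were picked for their role after their values were seen. RDH5 was not analysed here, and the counts omit some other genes, which are not reported. Positions are those of the deposited table, overlaps and 31-base words come from GENCODE release 29 on GRCh38, and promoters from RefSeq. Python 3.11.15 with numpy 2.4.6, Biopython 1.88 and matplotlib 3.10.9 was used.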

Additional observations from a re-analysis of the deposited data

How the results depend on the processing

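The number of enzymes at least 2-fold higher in MDA PCa 2b, 2 as reported, was 4 with a pseudocount of 0.1 TPM, with open decimal marks at their highest position, with commas read as digit grouping and with no pseudocount, and 0 at a fold limit of 4. Over all genes, this number was 2324 of 11624 as reported. It was 2728 with a pseudocount of 0.1 TPM, 2659 at the highest position and 2778 with no pseudocount. With commas read as grouping it was 3308 of 12126. The number higher in RC77 T/E stayed within 1.5 times of 2 in every alternative. At a threshold of 5 TPM, 2 enzymes were expressed in RC77 T/E beside 3 in MDA PCa 2b, and with open marks at their highest position 5 beside 4. The shares of all genes at 5 TPM and at a fold limit of 4 were not computed, so these counts are descriptions. Over the 10 enzymes the median log2 ratio, -0.25 as reported, was -1.09 with a pseudocount of 0.1 TPM, -0.097 after centring on the median of expressed genes and -0.90 over the 6 expressed enzymes. Commas read as digit grouping, under which the deposited means of both genes are not the means of their values, reversed HSD17B2 to -1.07 and HSD17B4 to 2.21 and raised the count of all genes higher in RC77 T/E from 2250 to 3972. No other alternative reversed an enzyme, but the log2 values of single enzymes changed in size. With a pseudocount of 0.1 TPM, 6 of 10 changed by more than 1.5 times, AKR1C3 and STS among them. With no pseudocount 4 of 8 did, and after centring 3 of 10 did. The alternatives without a pseudocount and with expressed enzymes only were chosen after seeing the data.

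No paired analysis was possible because only 1 library per line was analysed, so no library was left out either. The depth is unknown, and with it the number of reads behind the low values of UGT2B15, UGT2B17 and SRD5A2 and of AKR1C3 in MDA PCa 2b.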
